A study of Mus musculus with 4 samples.

Results

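The core circadian clock genes were followed as a set of 10 genes, matched by symbol among the 32285 genes of the deposited matrices: the activators Arntl, Clock and Npas2, the Period repressors Per1, Per2 and Per3, the cryptochromes Cry1 and Cry2, and the nuclear receptor repressors Nr1d1 and Nr1d2. All 10 symbols were found, each once. Nuclei had been isolated from the floating, fat-rich fraction of digested tissue. A 4-month male thymic RNA library came from 6 pooled thymi and was set beside a 4-month male library from epigonadal white fat, for which the sources used here do not give the number of animals. Another group was a 6-month female multiome library from 16 pooled thymi, whose chromatin fragments were used. All mice were labelled WT, Naïve and C57/BL6 and ate standard chow, with no allele or agent that separates the groups. Sex and age therefore differ between the RNA and the chromatin data. The sources used here do not give the time of day at which tissue was taken. For genes whose RNA cycles over the day, tissue and sampling time cannot be told apart between these libraries.

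The clock is a feedback loop. Arntl (BMAL1) pairs with Clock or with its relative Npas2 and switches on genes that carry E-box motifs, among them the Per, Cry and Nr1d genes. Per and Cry proteins then hold this pair back, while Nr1d1 and Nr1d2 (the Rev-erb receptors) repress Arntl and Npas2 and compete with the Ror receptors for the same sites. In most mouse tissues, fat included, Arntl and Npas2 RNA therefore peaks at about the opposite time of day to the RNA of the Per and Nr1d genes, and Clock RNA cycles weakly.

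The thymic library held 22600 barcodes, of which the authors labelled 365, and the epigonadal library held 5043 and 1564. Below, Ad I stands for the labels Ad Ia and Ad Ib summed, and the labels of the second type were Ad IIa, Ad IIb and Ad IIc. Barcodes with no label are called other barcodes. The libraries shared 147 barcodes, of which 0 were labelled in both. Counts were summed per label and given as CPM, the unique molecule counts (UMIs) per 1000000 UMIs of nuclear-encoded genes in the same sum. These totals ran from 24582 (thymic Ad Ib) to 1237126 (epigonadal Ad IIa), and all labelled nuclei had 534972 thymic and 2157889 epigonadal UMIs. Mitochondrial genes took 13.2% of the labelled thymic UMIs, 5.22% of the labelled epigonadal UMIs, and 51.2% and 10.6% in the other barcodes. The labels were checked against lists of marker genes. Adipocyte markers summed to 5685 CPM in thymic and 8096 CPM in epigonadal Ad I, with endothelial markers at 1225 and 1008 CPM. Thermogenic adipocyte markers summed to 2642 CPM in thymic and 330 CPM in epigonadal Ad I. The thymic endothelial markers stood at 72.3 CPM in Ad Ia and 2522 CPM in Ad Ib. In Ad IIa the adipocyte sums were 2710 and 6875 CPM and the endothelial sums 8509 and 6286 CPM, with 0 of 8 endothelial markers at 0 in either library and Flt1 the highest of them. Thymic Ad IIc had 7482 CPM of endothelial and 25948 CPM of red-cell markers, whereas epigonadal Ad IIc had 24682 CPM of adipocyte and 393 CPM of endothelial markers. A shared label therefore need not be 1 cell type, and the labels are used below as names of groups. Each group was 1 library, so no difference has a replicate check, no p-value is given, and every interval is an exact 95% interval that covers counting error only.

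The promoters of Per1, Cry1 and Per3 are shown because each carries an exact copy of a motif by which the loop is wired. The RefSeq promoter table (GRCm38.p6) listed 9 of the 10 genes, the exception being Per2, and the 250 bases before the start with most chromatin fragments were searched on both strands. The E-box CACGTG stood in 6.03% of 27025 promoters and the D-box TTATGTAA, read by Dbp, Tef, Hlf and Nfil3, in 0.87%. Capitals below mark the E-box in Per1 and Cry1 and the D-box in Per3, written 5′ to 3′ on the gene's own strand.
Per1 (chr11:69098699-69098948, plus strand): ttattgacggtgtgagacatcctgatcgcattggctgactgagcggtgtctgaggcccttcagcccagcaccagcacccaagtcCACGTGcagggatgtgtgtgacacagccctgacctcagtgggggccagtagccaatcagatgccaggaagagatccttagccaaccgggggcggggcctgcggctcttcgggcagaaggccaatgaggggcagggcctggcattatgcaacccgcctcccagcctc
Cry1 (chr10:85185055-85185304, minus strand): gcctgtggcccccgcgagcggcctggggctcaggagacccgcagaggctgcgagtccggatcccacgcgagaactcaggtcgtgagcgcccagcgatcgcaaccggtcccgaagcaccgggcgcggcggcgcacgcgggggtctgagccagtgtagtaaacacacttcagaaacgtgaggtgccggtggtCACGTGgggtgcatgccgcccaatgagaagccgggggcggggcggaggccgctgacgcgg
Per3 (chr4:151044666-151044915, minus strand): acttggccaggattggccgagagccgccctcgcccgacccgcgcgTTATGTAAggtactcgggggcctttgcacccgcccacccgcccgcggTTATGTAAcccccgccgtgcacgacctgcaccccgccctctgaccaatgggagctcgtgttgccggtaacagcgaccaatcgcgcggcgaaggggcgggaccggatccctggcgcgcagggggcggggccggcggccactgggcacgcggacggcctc
The first base of the E-box lay 166 bases before the start of Per1 and 60 before that of Cry1. Per3 held a pair of D-boxes, at 158 and 205 bases before its start. The Rev-erb and Ror core site AGGTCA, found in 13.6% of promoters, was present in Per1 and Nr1d2, and the full cAMP response element TGACGTCA, found in 1.61%, was in none of the 9. These matches are descriptions of letters in a window, and no match in a window says nothing about binding elsewhere.

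Clock, the DNA-binding partner of Arntl, had the most UMIs of the set, with 128 thymic and 323 epigonadal UMIs in labelled nuclei. Thymic Clock stood at 289 (Ad Ia) and 163 CPM (Ad Ib) in the first type, and at 249 (Ad IIa), 370 (Ad IIb) and 111 CPM (Ad IIc) in the second. Epigonadal Clock stood at 286 (Ad Ia) and 125 CPM (Ad Ib), and at 153 (Ad IIa), 277 (Ad IIb) and 75.6 CPM (Ad IIc). In both libraries Ad IIc was thus the lowest label and Ad Ia and Ad IIb the highest by point estimate. The thymic intervals overlapped, at 40.6 to 241 (Ad IIc, 6 UMIs), 125 to 570 (Ad Ia, 8 UMIs) and 177 to 681 CPM (Ad IIb, 10 UMIs). Ad IIa was the label in which the libraries separated, at 249 CPM (interval 203 to 303, 100 UMIs in 66 nuclei) against 153 CPM (132 to 176, 189 UMIs in 139 nuclei), a log2 ratio of 0.71 (0.34 to 1.06). Over all labelled nuclei the log2 ratio was 0.68 (0.37 to 0.98), thymic over epigonadal, and in Ad I it was 0.16 (−0.92 to 1.03).

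Arntl, the activator without which the loop stops, had 60 thymic and 175 epigonadal UMIs in labelled nuclei. Its thymic levels were 145 (Ad Ia) and 203 CPM (Ad Ib), and 110 (Ad IIa), 74.0 (Ad IIb) and 92.1 CPM (Ad IIc), the last pair resting on 2 and 5 UMIs. Its epigonadal levels were 146 (Ad Ia) and 125 CPM (Ad Ib), and 83.3 (Ad IIa), 114 (Ad IIb) and 38.7 CPM (Ad IIc). Epigonadal Ad IIc (interval 23.7 to 59.8) lay below epigonadal Ad IIa (68 to 101) with no overlap, and the thymic labels all overlapped each other. The thymic over epigonadal log2 ratio was 0.48 (0.02 to 0.90) over all labelled nuclei, 0.39 (−0.90 to 1.42) in Ad I and 0.41 (−0.15 to 0.92) in Ad IIa.

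Npas2, which can stand in for Clock, was the activator that differed most between labels. It stood at 108 CPM in thymic Ad Ia and 97.5 in epigonadal Ad Ia, at 40.7 (1 UMI) and 66.5 in Ad Ib, and at 14.9 and 13.7 in Ad IIa. Thymic over epigonadal, the log2 ratio was 0.01 (−2.12 to 1.43) in the summed Ad I and 0.19 (−1.51 to 1.53) in Ad IIa, intervals that leave room for more than a 2-fold difference. Ad IIa was lower than Ad I in both, by a log2 ratio of −2.41 (−4.43 to −0.09; 6 and 4 UMIs) in the thymic and −2.59 (−3.61 to −1.62; 17 and 22 UMIs) in the epigonadal library. In the epigonadal library Arntl and Clock were also lower in Ad IIa than in Ad I, by log2 ratios of −0.73 (−1.27 to −0.12) and −0.48 (−0.91 to −0.02). There 2 of 9 measured members, Npas2 and Cry2, were lower by 2-fold or more, against 17.5% of all genes. Epigonadal Ad IIc had the lowest levels of all 3 activators among the epigonadal labels, at log2 ratios of −1.80 for Arntl, −1.48 for Clock and −3.65 for Npas2 against Ad I, all with intervals below 0. In that comparison 4 of 9 measured members were lower by 2-fold or more, against 37.5% of all genes, and the members' median log2 ratio was −0.97 against −0.40 for all genes. Ribosomal protein genes summed to 76449 CPM in epigonadal Ad IIc, 35107 in Ad IIa and 18886 in Ad I, and RNAs retained in the nucleus, Malat1 among them, to 1829, 10402 and 42411 CPM, whose part in these ratios was not tested.

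**Figure D1:**
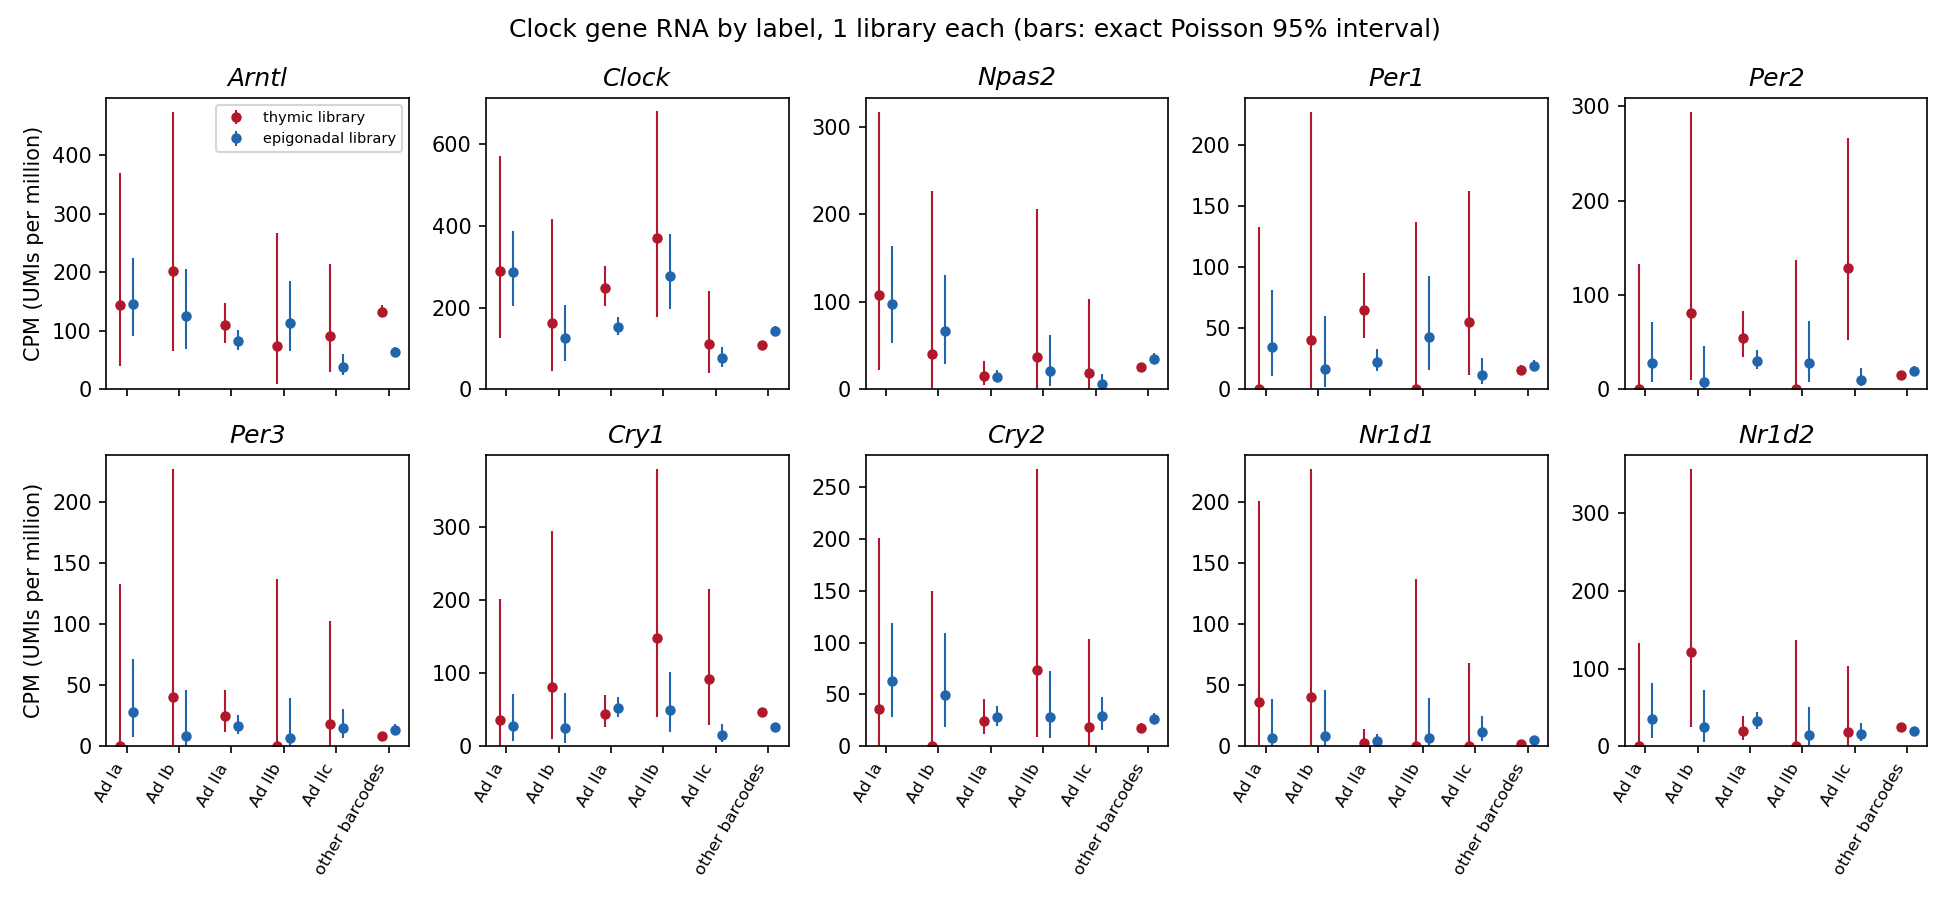
RNA level of each clock gene (vertical axis, CPM, from 0) in the 5 labels and in the other barcodes of the thymic (red) and epigonadal (blue) library; points are single sums with exact Poisson 95% intervals. Per1 and Clock in Ad IIa lie higher in the thymic library with no overlap of the bars, Npas2 falls from Ad Ia to Ad IIa in both libraries, and most bars of the thymic labels other than Ad IIa are wide.

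Per1, a Period gene that responds quickly to hormonal and cAMP signals, had the highest thymic over epigonadal ratio of the measured members in Ad IIa and over all labelled nuclei. Thymic Ad IIa held 26 UMIs in 22 nuclei, 64.8 CPM (42.3 to 94.9), and epigonadal Ad IIa held 28 UMIs in 25 nuclei, 22.6 CPM (15.0 to 32.7), a log2 ratio of 1.52 (0.69 to 2.34). No nucleus gave more than 2 Per1 UMIs, so no single nucleus carried this difference. Elsewhere in the thymic library Per1 had 0 UMIs in Ad Ia and Ad IIb, where 3 counts would be 108 and 111 CPM, 1 UMI in Ad Ib and 3 UMIs (55.3 CPM) in Ad IIc. Epigonadal Per1 stood at 34.8 (Ad Ia), 16.6 (Ad Ib), 42.6 (Ad IIb) and 11.6 CPM (Ad IIc). The thymic Ad I sum was 1 UMI against 7, too few to compare.

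Per2, the Period protein whose loss disturbs rhythms most in mice, followed Per1. In Ad IIa it stood at 54.8 CPM (22 UMIs) in the thymic and 29.9 CPM (37 UMIs) in the epigonadal library, a log2 ratio of 0.89 (0.04 to 1.67). In Ad IIc it stood at 129 CPM from 7 UMIs and 9.69 CPM from 5 UMIs, a log2 ratio of 3.70 (1.86 to 5.73), between sums whose markers differ as given above. Over all labelled nuclei Per2 had 31 and 51 UMIs, 57.9 and 23.6 CPM, and a log2 ratio of 1.30 (0.60 to 1.97), beside 30 and 47 UMIs, 56.1 and 21.8 CPM and 1.37 (0.65 to 2.06) for Per1. Per3, a Period gene with a more modest part in the loop, had 12 and 35 UMIs, 22.4 and 16.2 CPM, and a log2 ratio of 0.51 (−0.61 to 1.45). In Ad IIa its ratio was 0.59 (−0.70 to 1.70).

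Per1 and Per2 also respond to glucocorticoids, cAMP and serum, so lists of such genes were set beside them. Of 12 immediate early and cAMP-responsive genes 10 could be measured in Ad IIa, with a median log2 ratio of −0.10. Egr1 stood at 130 thymic and 70.3 epigonadal CPM there (0.89, 0.36 to 1.39) and Crem at 84.7 and 50.9 CPM (0.74, 0.09 to 1.36), whereas the salt-inducible kinase Sik1 stood at 37.4 and 67.9 CPM (−0.82, −1.76 to −0.06). Of 9 glucocorticoid targets, all measured, the median was −0.35, with Zbtb16 at 1201 and 446 CPM (1.43, 1.25 to 1.61), Fkbp5 at 79.7 and 104 CPM, and the metallothionein Mt1 at 2.49 and 167 CPM. Both lists thus held genes on either side of 0 in Ad IIa. In Ad IIc the immediate early median was 2.19 (7 measured) and the glucocorticoid median 0.16, beside 0.08 for all genes. Over all labelled nuclei they were 0.15 and 0.02, beside 0.02, and in the other barcodes −1.17 and −1.27, beside −0.12. For labelled thymic nuclei over thymic other barcodes they were 1.06 and 0.13, beside −0.11. Between the Ad IIa sums other values moved too: T-cell markers summed to 84.7 thymic CPM, with 0 of 10 at 0, and to 0 epigonadal CPM, with 10 of 10 at 0, and mitochondrial genes took 12.8% and 4.91% of UMIs. Their part in the Per1 and Per2 values was not tested.

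Cry1, the cryptochrome that holds the activators back late in the cycle, had 30 thymic and 87 epigonadal UMIs. It stood at 44.8 and 52.5 CPM in Ad IIa, a log2 ratio of −0.20 (−1.07 to 0.54), and at 57.4 and 26.5 CPM in Ad I, from 3 and 7 UMIs. In Ad IIc the values were 92.1 and 15.5 CPM from 5 and 8 UMIs (2.62, 0.61 to 4.37). Over all labelled nuclei the ratio was 0.49 (−0.17 to 1.09). Cry2, its relative, stood at 26.2 and 32.0 CPM over all labelled nuclei (−0.25, −1.23 to 0.55) and at 24.9 and 28.3 CPM in Ad IIa (−0.13, −1.36 to 0.86). The cryptochrome intervals in Ad IIa include 0, and they leave room for a change of 2-fold downward.

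Nr1d1, usually the gene of the loop with the widest daily swing, was the rarest of the 10, with 3 thymic and 15 epigonadal UMIs in labelled nuclei, or 5.61 and 6.95 CPM (−0.13, −2.74 to 1.51). The gene body overlaps that of Thra, and the sources used here do not say whether counting used strand, so even these UMIs are uncertain. Nr1d2 stood at 22.4 and 26.9 CPM from 12 and 58 UMIs (−0.21, −1.29 to 0.65), and in Ad IIa at 19.9 and 32.3 CPM (−0.63, −2.00 to 0.42). The Nr1d ratios given here thus lay below 0 in the point estimates, unlike those of Per1 and Per2, though their intervals reached above 0. In Ad I the Nr1d2 ratio was 1.06 (−1.63 to 2.98) from 3 and 8 UMIs. In the other barcodes with adipocyte markers, described below, it was 1.26 (−0.10 to 2.42). Per length of gene, Per1 was the highest member in thymic labelled nuclei at 3.77 CPM per kb of gene span, with Clock at 2.50 and Per2 at 1.34. In epigonadal labelled nuclei Clock led at 1.56 CPM per kb, with Per1 at 1.47. Npas2 was the lowest in both, at 0.132 and 0.123, and Nr1d1, with its short gene, stood at 0.753 and 0.934. This order depends on gene span, 14.9 kb for Per1 and 170 kb for Npas2. UMIs need not scale with span, and the sources used here do not say how introns were counted.

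Taking the 10 genes as a list, 2 of 10, Per1 and Per2, were higher in thymic labelled nuclei by 2-fold or more, where 8.12% of 11306 genes were, and 0 of 10 were lower, where 20.2% of genes were. The members' median log2 ratio was 0.48 against 0.02 for all genes. The pooled sums mix labels differently: Ad IIa gave 401448 of 534972 thymic and 1237126 of 2157889 epigonadal UMIs, and Ad IIc gave 54263 and 516172. In Ad IIa 9 members could be measured and 1, Per1, was higher by 2-fold or more (5.44% of genes), 0 were lower (16.2% of genes), and the medians were 0.41 and −0.02. In Ad I 6 members could be measured. There 2, Cry1 and Nr1d2, were higher by 2-fold or more (15.2% of genes) and 1, Cry2, was lower (17% of genes), all 3 with intervals that include 0. The Ad I median was 0.28 against 0.08 for all genes, turned to −0.53 in nuclei with at least 1000 UMIs, and no member's Ad I interval left out 0. In Ad IIc 5 members could be measured and 3, Arntl, Per2 and Cry1, were higher by 2-fold or more (32.7% of genes), 0 were lower (32% of genes), and the medians were 1.35 and 0.08.

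**Figure D2:**
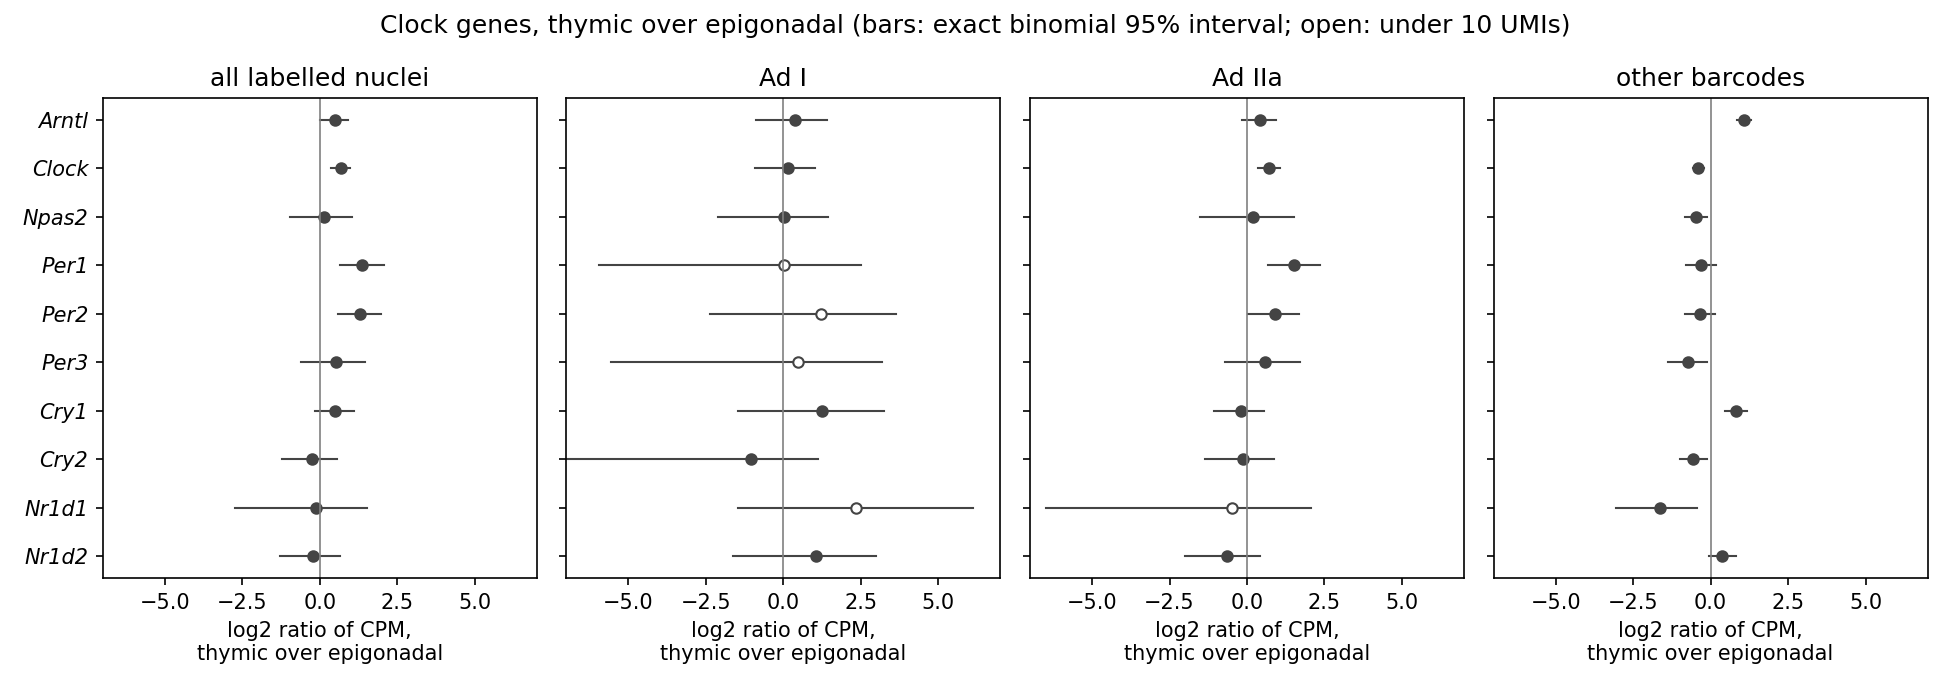
Log2 ratio of CPM, thymic over epigonadal (horizontal axis), of each clock gene in all labelled nuclei, Ad I, Ad IIa and the other barcodes, with exact binomial 95% intervals; open points rest on fewer than 10 UMIs and bars past the axis are clipped. Per1, Per2 and Clock lie above 0 in labelled nuclei and in Ad IIa, and Arntl lies above 0 in labelled nuclei. In the other barcodes Arntl and Cry1 lie above 0 and Clock, Npas2, Per3, Cry2 and Nr1d1 below.

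The phase relation was described by the share of Arntl and Npas2 UMIs among the UMIs of 7 genes, the other members of the sum being Per1, Per2, Per3, Nr1d1 and Nr1d2. This share needs no scaling between libraries, and a high value means more of the genes that peak together with Arntl. Each group was 1 library, with no series over the day. The share also moves with the level of single genes, such as Npas2 at 83.4 CPM in epigonadal Ad I and 13.7 in Ad IIa. A difference in share is therefore not by itself a difference in phase. Thymic Ad IIa gave 42.7% (33.6 to 52.2; 50 and 67 UMIs) and epigonadal Ad IIa 47.6% (41.3 to 54.0; 120 and 132 UMIs). In Ad I it was 59.1% (36.4 to 79.3; 13 and 9 UMIs) and 68.2% (57.2 to 77.9; 58 and 27 UMIs). In these pairs the thymic point estimate was the lower one and the intervals overlapped, whereas in Ad Ia (87.5% and 64.8%) and Ad IIb (100% and 57.6%) the thymic share, from 8 and 3 UMIs, was the higher one. The log2 odds ratio, thymic over epigonadal, was −0.28 (−0.96 to 0.39) in Ad IIa, −0.57 (−2.10 to 1.02) in Ad I and −0.38 (−0.94 to 0.17) over all labelled nuclei, so none of these 3 shifts exceeded counting error. In Ad IIa the sign changed without Per1, to 0.08, and with all 3 activators against all 7 repressors, to 0.25, both within that interval. Thinned to 500 UMIs per nucleus in 1 random draw, the Ad IIa value was −1.22, from only 8 and 18 thymic and 31 and 30 epigonadal UMIs.

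Labels were also compared within a library, where mice and collection were shared. In the epigonadal library Ad IIa had lower odds of Arntl and Npas2 than Ad I by a log2 odds ratio of −1.24 (−2.05 to −0.45). The thymic value was −0.95 (−2.47 to 0.52), in the same direction but within counting error. Ad IIc had shares of 33.3% (13.3 to 59.0) and 41.1% (28.1 to 55.0), close to Ad IIa. The 2 genes did not contribute alike: without Arntl the epigonadal value was −2.66 and without Npas2 it was −0.77. Thinned to 500 UMIs per nucleus it was −2.18, from 31 and 30 UMIs in Ad IIa and 28 and 6 in Ad I. Endothelial markers stood at 6286 CPM in epigonadal Ad IIa and 1008 CPM in epigonadal Ad I, and their part in this label difference was not tested.

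**Figure D3:**
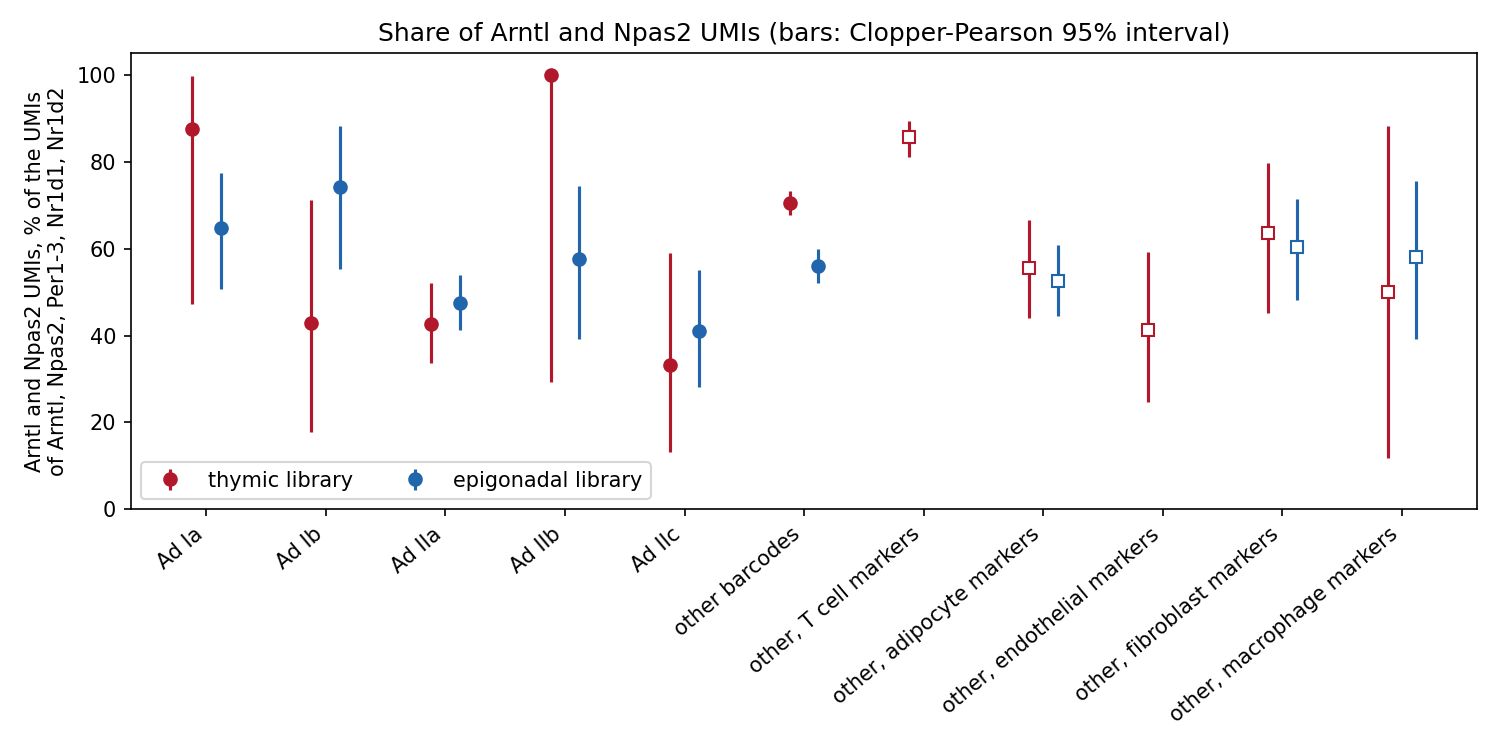
Share of Arntl and Npas2 UMIs among the UMIs of Arntl, Npas2, Per1 to Per3, Nr1d1 and Nr1d2 (vertical axis, percent) in the thymic (red) and epigonadal (blue) library, with Clopper-Pearson 95% intervals; filled circles are labels and all other barcodes, open squares are other barcodes sorted by marker genes. The thymic other barcodes with T-cell markers lie highest of the sums with narrow bars, at 85.6%, and Ad IIa lies at 42.7% and 47.6%.

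The difference between the libraries was not the same in the other barcodes as in the labelled nuclei. Arntl stood at 133 CPM (613 UMIs) in the thymic and 63.3 CPM (239 UMIs) in the epigonadal other barcodes, a log2 ratio of 1.07 (0.86 to 1.30), and Cry1 at 46.5 and 26.2 CPM (0.82, 0.48 to 1.19). Per1 and Per2, high in labelled thymic nuclei, stood at 15.6 and 15.2 CPM in the thymic and 19.3 CPM each in the epigonadal other barcodes, with ratios of −0.30 (−0.79 to 0.18) and −0.35 (−0.84 to 0.15). Clock, Npas2, Per3, Cry2 and Nr1d1 had ratios of −0.40, −0.47, −0.73, −0.56 and −1.62, with intervals below 0. Arntl was thus on the thymic side in the other barcodes and in the labelled nuclei (0.48). Clock changed sign, from 0.68 in labelled nuclei. The share of Arntl and Npas2 in the other barcodes, thymic over epigonadal, had a log2 odds ratio of 0.92 (0.61 to 1.22), which turned to −0.24 without Arntl. By gene, 1 of 10 members was higher by 2-fold or more (11.1% of genes) and 1, Nr1d1 with 8 against 21 UMIs, lower (22.4% of genes). Labelled thymic nuclei exceeded the thymic other barcodes by log2 ratios of 1.86 for Per1, 1.94 for Per2, 1.48 for Per3 and 1.15 for Clock, with intervals above 0, and 5 of 10 members were higher there by 2-fold or more (16.6% of genes), the fifth being Nr1d1 with 3 and 8 UMIs (1.82, −0.86 to 3.75). In the epigonadal library 0 of 10 members passed 2-fold in either direction between labelled nuclei and other barcodes (5.08% of genes higher, 14.9% lower).

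Arntl and Npas2 took 70.6% (67.7 to 73.3) of the UMIs of the 7 genes in thymic other barcodes and 45.0% (37.1 to 53.1) in labelled thymic nuclei, a log2 odds ratio of 1.55 (1.04 to 2.06). In the epigonadal library the shares were 56.0% (52.1 to 59.8) and 51.6% (46.8 to 56.5), a log2 odds ratio of 0.25 (−0.11 to 0.61). The interval of the thymic value does not overlap that of the epigonadal one, but this depended on the genes summed. With all 3 activators against all 7 repressors the values were 0.43 for the thymic and 0.31 for the epigonadal library, and without Arntl they were 1.48 and 1.05. Mice, sampling and library were the same on both sides of each of these comparisons. Other barcodes of the thymic library had a median of 308 UMIs against 1479 in labelled nuclei. Among thymic other barcodes, the 933 with at most 20% mitochondrial UMIs gave a log2 odds ratio of 2.32.

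Other barcodes were then sorted by these marker lists, a step added after the data were seen: a barcode was placed in a class when it held at least 2 different markers of 1 list and of no other. In the thymic library 1233 barcodes fell in the T-cell class. They held 229 Arntl UMIs, 251 CPM (219 to 285), and 1 Per2 UMI, 1.09 CPM (0.0277 to 6.10), with Per1 at 9.85, Per3 at 3.28 and Cry1 at 68.9 CPM. Among the classes of at least 50 barcodes in either library these were the highest Arntl and the lowest Per2 level, although the Arntl interval of the small thymic macrophage class and the Per2 intervals of both macrophage classes reach them. The share of Arntl and Npas2 was 85.6% (81.1 to 89.3; 261 and 44 UMIs).

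The adipocyte class held 685 thymic and 1559 epigonadal barcodes of the same libraries and mice, nuclei or fragments that the label sums do not contain. Per1 stood at 41.4 and 13.3 CPM (9 and 15 UMIs; log2 ratio 1.66, 0.26 to 2.92) and Per2 at 50.6 and 15.1 CPM (11 and 17 UMIs; 1.76, 0.50 to 2.92). Per3 stood at 27.6 and 8.01 CPM (1.82, 0.01 to 3.44). All 3 activators were also on the thymic side, with Arntl at 124 and 38.3 CPM (1.71, 0.95 to 2.43), Clock at 221 and 116 CPM (0.94, 0.42 to 1.42) and Npas2 at 82.8 and 32.9 CPM (1.35, 0.43 to 2.18). Of the 10 members, 6 had an interval above 0, where 20% of 10006 genes did, and the members' median log2 ratio was 1.31 against 0.14 for all genes. The intervals of Cry1 (0.11, −2.02 to 1.55), Cry2 (−0.10, −1.94 to 1.17), Nr1d1 (−0.57, −6.52 to 1.69) and Nr1d2 (1.26, −0.10 to 2.42) included 0. Activators and Per genes thus stood higher together in this class, and the share of Arntl and Npas2 was 55.6% (44.1 to 66.6) for thymic and 52.6% (44.4 to 60.8) for epigonadal barcodes. Mitochondrial genes took 40.8% and 14.2% of the UMIs of these sums, and the barcodes had medians of 405 thymic and 685 epigonadal UMIs. The part of either in the ratios was not tested. In the fibroblast class, of 80 thymic and 165 epigonadal barcodes, no member's interval left out 0. Npas2 was high there in both, at 130 (64.7 to 232) and 79.3 CPM (46.2 to 127). The thymic endothelial class, of 399 barcodes, held Per1 at 35.6 and Per2 at 44.6 CPM with Npas2 at 8.91 CPM, and its share of Arntl and Npas2 was 41.2% (24.6 to 59.3), near that of thymic Ad IIa.

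The loop is tuned by other factors, of which a list of 16 was followed, and 13 could be measured over all labelled nuclei. Their median log2 ratio was 0.54, thymic over epigonadal, against 0.02 for all genes, with 2 higher (8.12% of all genes) and 1 lower (20.2%) by 2-fold or more. Timeless, a partner of the replication machinery that binds clock proteins, was higher at 26.2 against 10.7 CPM (1.32, 0.22 to 2.32; 14 and 23 UMIs). Rora, the Ror receptor that activates Arntl, stood at 497 and 342 CPM (0.54, 0.33 to 0.74), at 488 and 330 CPM in Ad IIa (0.57, 0.31 to 0.82) and at 766 and 819 CPM in Ad I (−0.08, −0.62 to 0.40). The Rora level was above that of Ad IIa in Ad I of both libraries, as was the Npas2 level. Bhlhe40, a repressor that competes for E-boxes, had 7 and 14 UMIs (1.06, −0.54 to 2.42), its relative Bhlhe41 had 0 and 14 UMIs (the higher end of the interval at 0.28), and Ciart, a repressor of the Clock and Arntl pair, had 0 and 3. In the other barcodes 14 of the 16 could be measured, with a median log2 ratio of 0.37 against −0.12 for all genes. There 1 was higher (11.1% of all genes) and 2 were lower (22.4%) by 2-fold or more. Rorb (−1.22, −2.21 to −0.32) and Bhlhe41 (−1.46, −2.55 to −0.51) were lower in the thymic library, and Rora stood at 182 and 338 CPM. In Ad IIa no modulator with an interval apart from 0 reached 2-fold. In Ad IIc Rora (1.33), the kinase gene Csnk1e (2.62) and the ubiquitin ligase gene Fbxw11 (2.56), the products of the last pair setting the stability of Per proteins, were higher in the thymic library with intervals above 0.

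Of 7 output genes, which carry the rhythm from the loop to metabolism, 6 could be measured over all labelled nuclei, with a median log2 ratio of −0.31 against 0.02 for all genes. Of these 6, 0 passed 2-fold, where 8.12% of all genes were higher and 20.2% lower. Dbp, a direct E-box target that usually cycles as widely as Nr1d1, had 1 thymic and 5 epigonadal UMIs. Its relatives Tef and Hlf stood at 20.6 and 24.6 CPM (−0.21, −1.34 to 0.70) and at 3.74 and 8.34 CPM (−0.88, −4.31 to 0.90). Nfil3, which represses at the D-box that those 3 factors activate, stood at 11.2 and 16.7 CPM (−0.48, −2.11 to 0.69). None of these 4 genes rose with Per1 and Per2 beyond counting error. Nampt, which makes the NAD that clock-linked deacetylases use, differed by label: it stood at 249 thymic and 106 epigonadal CPM in Ad I (1.26, 0.16 to 2.23; 13 and 28 UMIs) and at 42.3 and 63.0 CPM in Ad IIa (−0.54, −1.42 to 0.20). In the other barcodes Tef (−1.23, −1.70 to −0.78) and Nfil3 (−1.04, −1.68 to −0.44) were lower in the thymic library, and Dbp had 8 and 9 UMIs.

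The patterns across labels were also compared with other genes. Over 12 sums, the 5 labels and the other barcodes of each library, the genes most like Arntl by Spearman correlation were Clk1 (0.94), Rbm25 (0.91) and Smg1 (0.91), among 900 genes with at least 500 labelled UMIs. The genes most like Clock were Ebf1 (0.94), Atrnl1 (0.91) and Camk2d (0.90), and those most like Cry1 were Itpr1 (0.89), Vps13d (0.88) and Nfat5 (0.86). No member reached 500 labelled UMIs, so none could be named here. The 12 sums share 2 libraries and differ in depth, and the ranks describe these sums only. The named values are the highest of 900, and some sums held few UMIs, such as 2 of Arntl in thymic Ad IIb. Their size is therefore no evidence of a shared pattern.

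Chromatin accessibility was measured in the 6-month female thymic nuclei by counting fragments from 2 kb before to 2 kb after each gene, per 1000000 fragments of the label (FPM), with positions on GRCm38. There were 146 nuclei labelled thyAD I with 1646902 fragments, 140 labelled thyAD II with 2189613, and 31 labelled Immune with 561387. These are labels of another library, and how they map onto the Ad I and Ad II labels was not tested. All 10 genes had fragments in all 3 labels. Clock had the fewest, at 58.3, 60.3 and 51.7 FPM in the order thyAD I, thyAD II and Immune. The highest was Cry2 in thyAD I at 209, Arntl in thyAD II at 217 and Per1 in Immune nuclei at 216, with Arntl at 203 and 208 in thyAD I and Immune nuclei. Per length of window, Nr1d1 had the most fragments in thyAD I and thyAD II at 14.9 and 11.3 FPM per kb, ahead of Per1 at 9.95 and 9.18, and Clock the fewest at 0.584 and 0.604. This order depends on window length, 11.4 kb for Nr1d1 and 99.7 kb for Clock. In start windows of equal length, given below, Nr1d2 had the most. The Nr1d1 window also covers part of Thra, and fragments carry no strand.

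Between thyAD II and thyAD I 0 of 10 members differed by 2-fold or more (4.46% of 27863 genes higher, 2.99% lower), and the members' median log2 ratio was −0.04. Smaller differences ran both ways. Per2 (chr1:91415977-91459351) stood at 200 FPM in thyAD II and 169 in thyAD I (log2 ratio 0.25, 0.03 to 0.47) and Npas2 (chr1:39193702-39363240) at 151 and 126 (0.26, 0.01 to 0.52). Nr1d1 (chr11:98767932-98775377) stood at 129 and 170 (−0.40, −0.64 to −0.15) and Per3 (chr4:150997018-151044707) at 74.0 and 97.2 (−0.39, −0.72 to −0.07). So 2 members had an interval above 0, where 5.60% of genes did, and 2 below 0, where 5.54% did. Npas2 therefore leaned to thyAD II in chromatin, while in RNA it was lower in Ad IIa than in Ad I. Among the output genes 4 of 7 had an interval below 0: Wee1 (−0.47), Nampt (−0.32), Hlf (−0.30) and Tef (−0.25).

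Immune nuclei had less accessible Cry2, at 125 FPM against 209 in thyAD I (−0.74, −1.14 to −0.37) and 188 in thyAD II (−0.58, −0.98 to −0.22). Nr1d1 stood at 109 in Immune nuclei and 170 in thyAD I (−0.64, −1.07 to −0.24). Per2 stood at 141 in Immune nuclei against 200 in thyAD II (−0.50, −0.88 to −0.16), and Per1 at 216 against 173 (0.32, 0.01 to 0.62). Arntl stood at 208, between the adipocyte labels. Against thyAD I, 0 of 10 members passed 2-fold (9.5% of genes higher, 9.48% lower), and against thyAD II 0 of 10 did (8.82% and 10.4%).

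**Figure D4:**
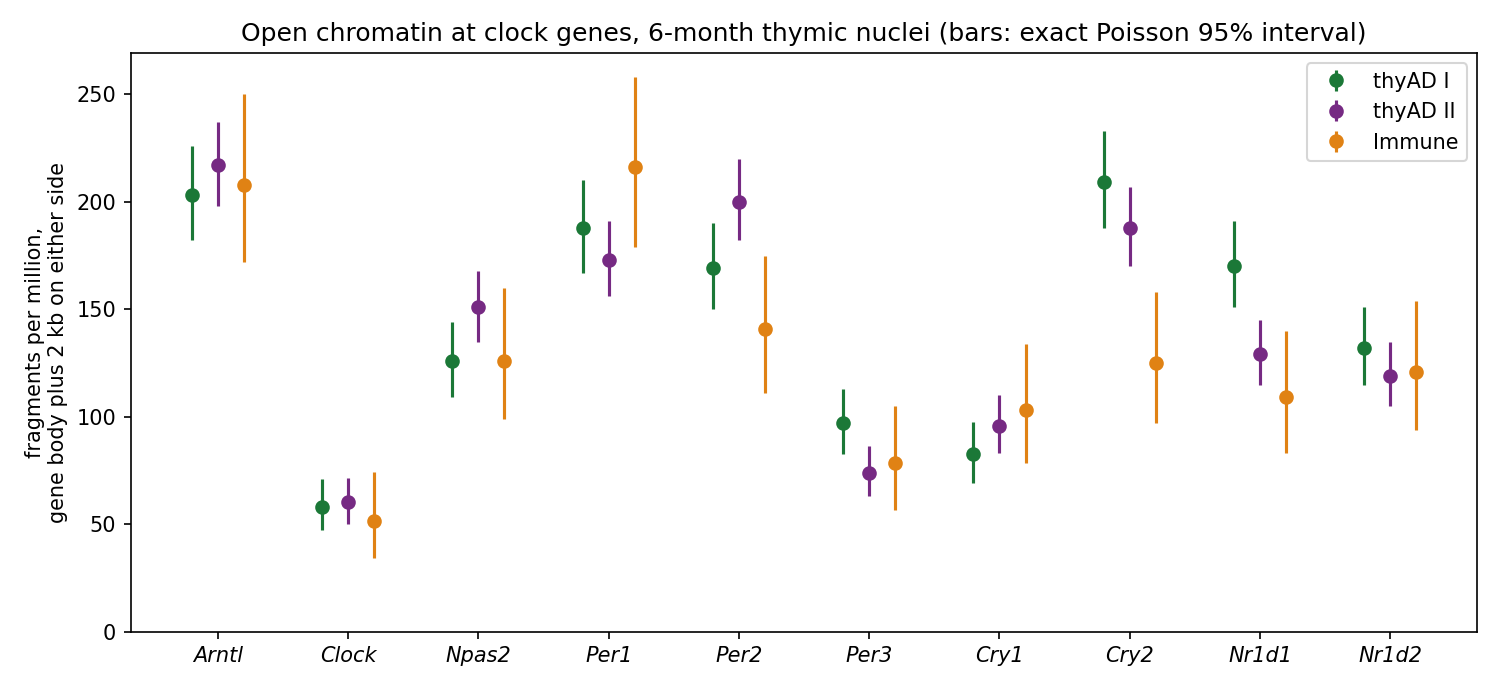
Chromatin fragments (FPM) over the gene body plus 2 kb on either side (vertical axis, from 0) for each clock gene in thyAD I (green), thyAD II (purple) and Immune (orange) nuclei of the 6-month thymic library, with exact Poisson 95% intervals. Nr1d1 and Per3 lie lower in thyAD II than in thyAD I, Per2 and Npas2 higher, and Cry2 lies lowest in Immune nuclei.

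The starts of 9 genes were then counted in windows of 1 kb on either side. Nr1d2 had the most fragments of the 9, 459 over all labelled nuclei, more than 99.9% of 27025 gene starts, and Arntl, with 325, exceeded 99.1%. Cry1, Per3, Cry2 and Nr1d1 exceeded between 94.6% and 96.5% of starts, Clock 90.4% and Per1 86.2%. Npas2, with 61 fragments, exceeded 69.1%, and its highest 100-base bin of cut sites lay outside the counted window, centred 1250 bases before the listed start in thyAD I and 1450 in thyAD II. For Per1 the highest bin lay 150 bases before the start in thyAD I. It lay outside the window in thyAD II, 1850 bases before the start, and in Immune nuclei, 1750 bases before. The highest Nr1d1 bin, given below, also lay outside the window. Where a gene has several listed starts, the one with most fragments was used.

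At its start Nr1d1 had 61.9 FPM in thyAD I, 38.8 in thyAD II and 30.3 in Immune nuclei, a log2 ratio of −0.67 (−1.11 to −0.24; 85 and 102 fragments) for thyAD II over thyAD I. The 250 bases before this start are shown as the stretch beside which the largest start difference of the set was measured, with no motif in capitals since none of the 4 searched was found there.
Nr1d1 (chr11:98775378-98775627, minus strand): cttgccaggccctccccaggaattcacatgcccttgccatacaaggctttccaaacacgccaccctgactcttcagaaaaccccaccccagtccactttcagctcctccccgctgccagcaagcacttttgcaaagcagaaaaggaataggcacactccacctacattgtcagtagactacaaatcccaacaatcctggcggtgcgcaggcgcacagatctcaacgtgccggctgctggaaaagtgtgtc
The profile of cut sites had its highest bin not at this start but inside the gene, centred 1350 bases after it in both adipocyte labels, at 29.1 and 23.7 cut sites per 1000000 fragments. The median log2 ratio of the 9 starts, thyAD II over thyAD I, was −0.27, against −0.00 over all 12898 starts measured. Over the 8348 starts with at least as many fragments as Npas2, the lowest member, it was −0.05. The other members had more fragments than Npas2, and starts matched to them were not compared. Of the 9, only Nr1d1 had an interval that left out 0, as 6.24% of those 8348 starts did on that side. The E-box promoters of Per1 and Cry1 stood at 36.4 and 28.8 and at 52.8 and 54.3 FPM in thyAD I and thyAD II, and the D-box promoter of Per3 at 59.5 and 45.7.

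The authors' cluster numbers split each label, thyAD I into clusters 1 and 3 and thyAD II into clusters 0 and 4. Over the gene body 2 of 10 members had an interval above 0 for cluster 3 over cluster 1, where 4.98% of genes did. Nr1d1 stood at 150 FPM in cluster 1 and 212 in cluster 3 (0.50, 0.14 to 0.85), beside 136 in cluster 0 and 119 in cluster 4. Per1 stood at 165 and 235 in clusters 1 and 3 (0.51, 0.17 to 0.85). Within thyAD I Nr1d1 was thus higher in cluster 3, which had the fewest fragments per nucleus, a median of 8414 against 12369 in cluster 1. Gene starts in general were higher in cluster 3, with a median log2 ratio of 0.17 over all starts, and at their starts Per1 had a ratio of 0.92 (0.13 to 1.69) and Nr1d1 of 0.48 (−0.14 to 1.07). Per1 was the only one of the 9 starts with an interval above 0, where 5.82% of all starts had one. Nr1d2 was lower in cluster 4 than in cluster 0, at 96.8 against 134 FPM (−0.46, −0.86 to −0.09), and Per1 at 151 against 188 (−0.31, −0.63 to −0.00). These were the 2 of 10 members with an interval below 0 there, where 4.02% of genes had one. Clusters are parts of 1 library and were formed on the same nuclei, so these values describe the clusters and test nothing.

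**Figure D5:**
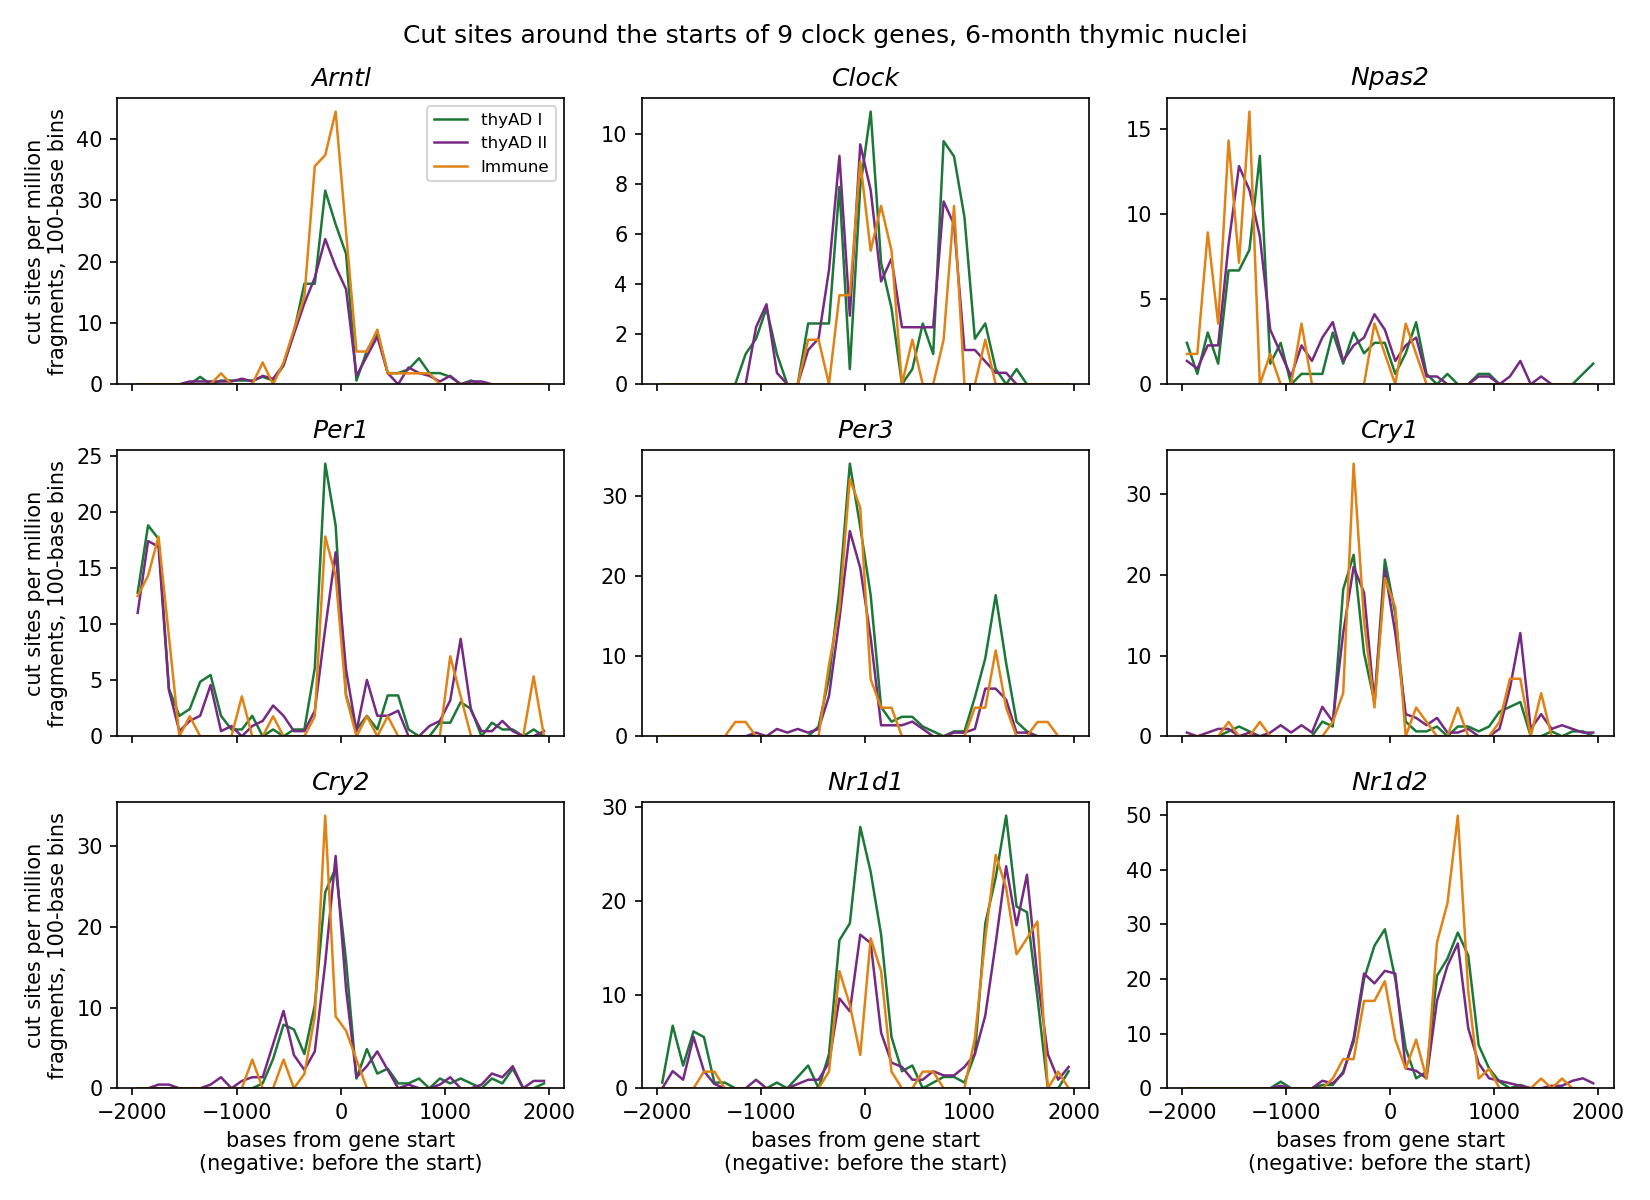
Cut sites per 1000000 fragments in 100-base bins (vertical axis, from 0) against the distance in bases from the start of each of 9 clock genes (horizontal axis, negative before the start), in thyAD I (green), thyAD II (purple) and Immune (orange) nuclei; vertical scales differ between panels. Nr1d1 shows a peak at the start that is highest in thyAD I and another centred 1350 bases into the gene, and the Npas2 peak lies more than 1 kb before its listed start.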

How the data were processed

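Droplet RNA counts were analysed for 1 thymic and 1 epigonadal library, and fragments for 1 multiome library. The deposited matrices hold raw UMI counts, which per the file headers came from cellranger 7.2.0, and the submitters' processing notes name mm10, Cell Ranger ARC 2.0.2 and Seurat 5.1.0. The sources used here do not state the annotation or how introns and strand were treated. The authors deposited the percent of mitochondrial UMIs, counts and a label per nucleus. All labelled nuclei are taken as the authors classed them, and no doublet caller was run. The deposited fragment counts were made on GRCm38 per the file headers. The copy of the 6-month table used here broke off, so 317 complete rows were used. The multiome RNA was not analysed here.

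UMIs were summed per library and label. CPM used nuclear-encoded genes as total. Log2 ratios had 0.5 UMI added to each side and an exact binomial interval, and a gene was measured with at least 10 UMIs over both sides. A difference counted as called at 2-fold or more. Ratios were tested on simulated data that held counting error only, which leaves out variation between nuclei, mice and libraries. Python 3.11.15 with numpy 2.4.6, pandas 2.3.3 and scipy 1.17.1 was used, and edgeR 4.0.16 for TMM scaling as an alternative. With 1 library per group there is no test, p-value or SD.

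The members and lists were chosen with earlier results of these data known. Named genes were all 10 members; of modulators and outputs, per comparison between libraries, measured genes at 2-fold or more with an interval apart from 0, and Dbp, Tef, Hlf, Nfil3, Rora, Bhlhe40 and Ciart always; and, for each member with at least 100 labelled UMIs, the 3 genes most like it. Output genes in chromatin and the hormone-responsive genes were named after their values were seen. Some genes under this rule are not reported here. The other barcodes' phase relation, their marker classes, and cluster comparisons were added after the data were seen.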

Additional observations from a re-analysis of the deposited data

How the results depend on the processing

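No paired analysis was possible because each group has 1 library. Scaling by edgeR TMM, by median of ratios or without 3 abundant nuclear RNAs, weighting nuclei equally, removing a share of the unlabelled profile, a larger added count and other minimums gave members' median log2 ratios, thymic over epigonadal, of 0.28 to 0.77 over all labelled nuclei, 0.22 to 0.71 in Ad IIa and −0.53 to 0.77 in Ad I, where the value below 0 came from nuclei with at least 1000 UMIs. Scaling moved the median of all genes by at most 0.05. Of 119 alternative values of the phase relation and the medians, 109 stayed within a set limit around the value reported. For the phase relation this limit was its counting interval. A median has no such interval, and its limit was taken from the width of single members' intervals. Staying within that wide limit says little about how stable a median is. In 1 random draw each nucleus was thinned to 500 UMIs. The log2 odds ratio of Ad IIa, thymic over epigonadal, was then −1.22, from 8 and 18 against 31 and 30 UMIs. That of epigonadal Ad IIa over Ad I was −2.18, from 31 and 30 against 28 and 6 UMIs. Without Arntl, and not thinned, this log2 odds ratio was −2.66. For thymic other barcodes over labelled nuclei it was 0.43 with all activators against all repressors and 2.32 with at most 20% mitochondrial UMIs. For epigonadal other barcodes over labelled nuclei it was 1.05 without Arntl. For other barcodes, thymic over epigonadal, it was 0.92 (0.61 to 1.22) as reported here and turned to −0.24 without Arntl; it was 1.30 without Npas2, 0.14 with all activators against all repressors and 1.71 with at most 20% mitochondrial UMIs. The cause of these shifts was not tested. In Ad I, Arntl went from 0.39 to −0.96 in nuclei with at least 1000 UMIs, of which the thymic library had 7 in Ad Ia and 2 in Ad Ib. In thymic other barcodes with at least 500 UMIs Arntl stood at 157 and Cry1 at 53.8 CPM. The chromatin median ran from −0.27 at gene starts to 0.02 over the gene body alone. The members' low counts are also a limit: thymic Ad I held 1 Per1 and 2 Per2 UMIs, so its phase values carry wide intervals that include 0 in both comparisons made with it. Time of day cannot be told apart from tissue, nor sex and age from the assay.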
